A study of Mus musculus with 32 samples.

Results

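Double-negative migratory dendritic cells (DN migDC) were set against resident conventional dendritic cells of type 2 (cDC2), both sorted from mouse skin-draining lymph nodes and profiled for open chromatin. The comparison holds 12 of the 32 libraries of the study, 6 of DN migDC and 6 of cDC2, chosen by their cell type labels within the cohort of mice with floxed Ifngr1 alleles. Each subset has 3 libraries from mice that carry a Cre recombinase under the CD11c promoter (CD11cCREpos, here Cre-positive) and 3 from mice without it (CD11cCREneg, here Cre-negative). Every mouse of both genotypes has loxP-flanked Ifngr1, the gene for the ligand-binding chain of the interferon-γ (IFN-γ) receptor, so the Cre-negative animals are floxed controls and not unmodified wild types, and the Cre acts in CD11c-expressing cells as a class and not in DN migDC or cDC2 alone. The source names of the DN migDC libraries list CD11b and CD103 without a sign, and those of the cDC2 libraries list CD11b. Age, sex and strain are not given in the labels, and no label says whether libraries came from separate animals, so the p-values measure the spread between these libraries only, which may be technical.

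Dendritic cells sample antigen in tissue and present it to T cells. Resident cDC2 enter the lymph node from blood and stay immature until stimulated, whereas migratory cells leave the skin, follow CCR7 ligands through lymph and arrive with a mature programme of costimulatory molecules, chemokines and cytoskeletal proteins. The assay, Omni-ATAC-seq, uses a transposase that cuts open chromatin, and a peak marks a stretch that was cut more often than its surroundings. A peak near a gene does not show that the gene is expressed or that the stretch acts on it.

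On chromosomes 1 to 19 and X, peak lists were longer in DN migDC, with 63776.0 ± 7442.1 peaks per list against 47117.8 ± 7562.9 in cDC2 (SD, n = 6 each, exact permutation test of the subset labels within genotype, two-sided, p = 0.005, the smallest it can give). The lists ran between 56959 and 74975 peaks in DN migDC and between 38455 and 56115 in cDC2, and the ranges did not overlap. The lists hold no read counts, so the depth of each library is unknown, and a longer list can hold weaker peaks. Each list was therefore reduced to its strongest 38455 peaks by the deposited peak signal, and a region is said to be called in a library when one of these kept peaks covers it. Among kept peaks, the share within 1000 bp of a gene start or end was 31.0 ± 1.17% in DN migDC and 30.8 ± 0.225% in cDC2 (SD, n = 6 each, exact permutation p = 0.9). The median width was 733 ± 56.8 bp in DN migDC and 741 ± 86.6 bp in cDC2 (SD, n = 6 each, exact permutation p = 0.815). DN migDC Cre-positive 1 stood apart within its subset, with the longest list, the highest share of kept peaks near gene starts or ends at 33.3% and the lowest overlap with the other DN migDC libraries. Without it, 5965 regions were more and 5178 less often called in DN migDC, against 5119 and 4336 with it. Leaving out any other single library also raised the total that passed, from 9455 to between 9789 and 10604, against 11143 here. The titles of all 6 cDC2 libraries and of 2 DN migDC libraries (Cre-positive 1 and Cre-negative 1) are plain numbers, and those of the other 4 DN migDC libraries carry a letter. What the letter stands for is not given, and where a result differs between these 2 sets the title form and the subset cannot be told apart fully.

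Calls separated the 2 subsets. Of 90465 consensus regions, 22706 were called in all 12 libraries and 35455 in none of them. Of the 19628 regions with enough calls and enough missing calls to test, 9455 (48.2%) passed. Among all tested, 5119 (26.1%) were more often called in DN migDC and 4336 (22.1%) were less often called in DN migDC (exact conditional test with genotype as stratum, two-sided, Benjamini-Hochberg adjusted p under 0.05 over all tested regions). In 3131 regions (16.0%) all 6 DN migDC libraries and no cDC2 library held a kept peak, and in 2438 (12.4%) no DN migDC library and all 6 cDC2 libraries did. By this exact test these extremes have p = 0.005 and adjusted p = 0.0176, and regions with 6 libraries against 1, or 5 against 0, have adjusted p = 0.0415.

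**Figure D1:**
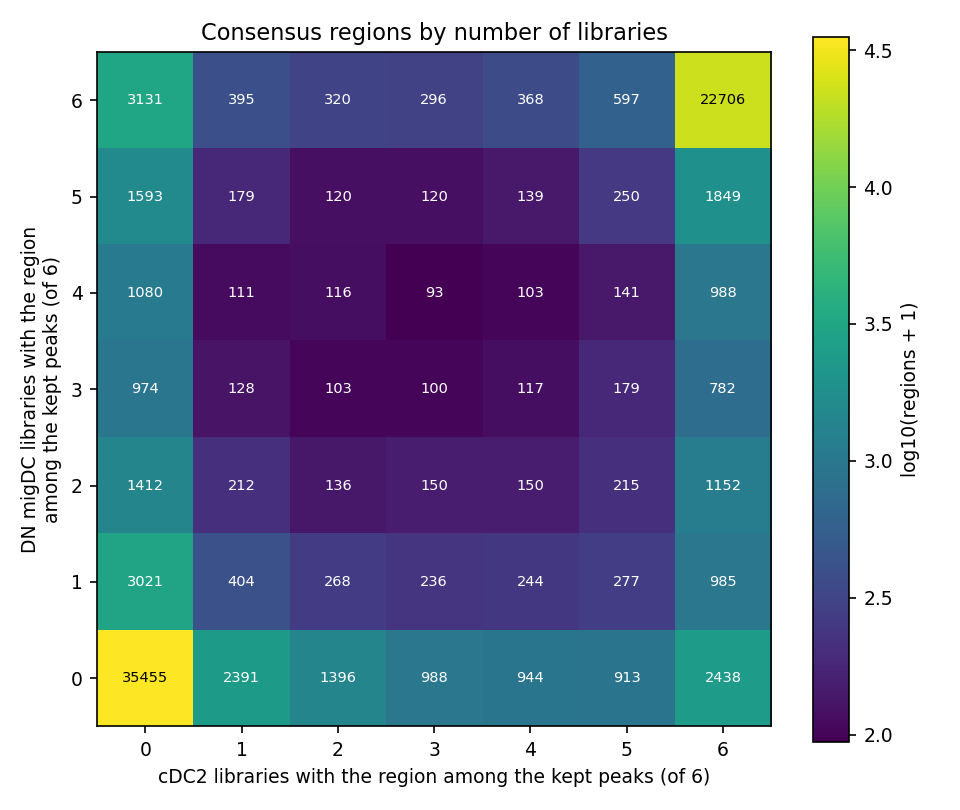
Number of consensus regions by how many of 6 DN migDC libraries (vertical axis) and of 6 cDC2 libraries (horizontal axis) held the region among the strongest 38455 peaks, with colour on a log10 scale. Apart from the 35455 regions in no library and the 22706 in all 12, the corners with 3131 regions (6 DN migDC, 0 cDC2) and 2438 regions (0 DN migDC, 6 cDC2) hold more regions than the middle of the grid.

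A missing call means that a region is not among the strongest peaks of a list, which is not the same as closed. From here on, a weak or weaker peak is one below the cut of its own list. The lowest kept signal was 467.5 or more in every DN migDC list and 455.7 or less in every cDC2 list. A weaker DN migDC peak can therefore have a higher deposited signal than a kept cDC2 peak. In the full lists, 3332 of the 5119 regions more often called in DN migDC had no peak in any cDC2 library and 3 had a peak in all 6. For the 4336 regions less often called in DN migDC the picture differed: 529 had no peak in any DN migDC library, and 1063 still had a peak in all 6. The cut bounds these counts. The full list of cDC2 Cre-negative 3 is its kept list, and that of cDC2 Cre-positive 2 holds 39312 peaks. Every DN migDC list holds 56959 peaks or more, so only DN migDC could have peaks below the cut in all 6 libraries. Tested on the full lists, 6483 of 32283 regions (20.1%) were more often called in DN migDC and 549 (1.70%) less often, so the number on the cDC2 side depends on the list length far more than the number on the DN migDC side. The lower calls described here are therefore mostly lower ranks of peaks that some DN migDC libraries still have. Counts from the full lists are given beside the gene lists below, to be read against these 20.1% and 1.70%.

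The split was present in both genotypes. Among Cre-positive libraries, 3914 regions were called in all 3 DN migDC and no cDC2 library and 3789 the other way round. Among Cre-negative libraries, these counts were 4912 and 3847. A region passes only with 5 or 6 libraries of a subset against 0 or 1 of the other, so no passed region can differ in direction between genotypes. Of the 5119 regions more often called in DN migDC 3892 were called in both plain-title DN migDC libraries, and 3842 of the 4336 on the cDC2 side were called in neither. That rule largely fixes these counts, since 3131 and 395 of the former were called in all 6 DN migDC libraries. Only the 1593 called in 5 DN migDC and 0 cDC2 libraries could miss a plain-title library, and most of them did. On the cDC2 side only the 985 called in 1 DN migDC library could have a plain-title call. Another 558 regions, which this rule cannot pass, were called in both plain-title DN migDC libraries, in none of the 4 lettered ones and in all 6 cDC2 libraries.

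Similarity between libraries followed the subset. The Jaccard similarity, the number of shared regions divided by the number in either library, was 0.805 on average within DN migDC (range 0.711 to 0.872, 15 pairs), 0.856 within cDC2 (0.825 to 0.881, 15 pairs) and 0.615 across the subsets (0.583 to 0.638, 36 pairs). The within-subset mean exceeded the mean across subsets by 0.215 (exact permutation test, one-sided, p = 0.005, the smallest it can give). The lowest value within a subset, 0.711, lay above the highest value across subsets.

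**Figure D2:**
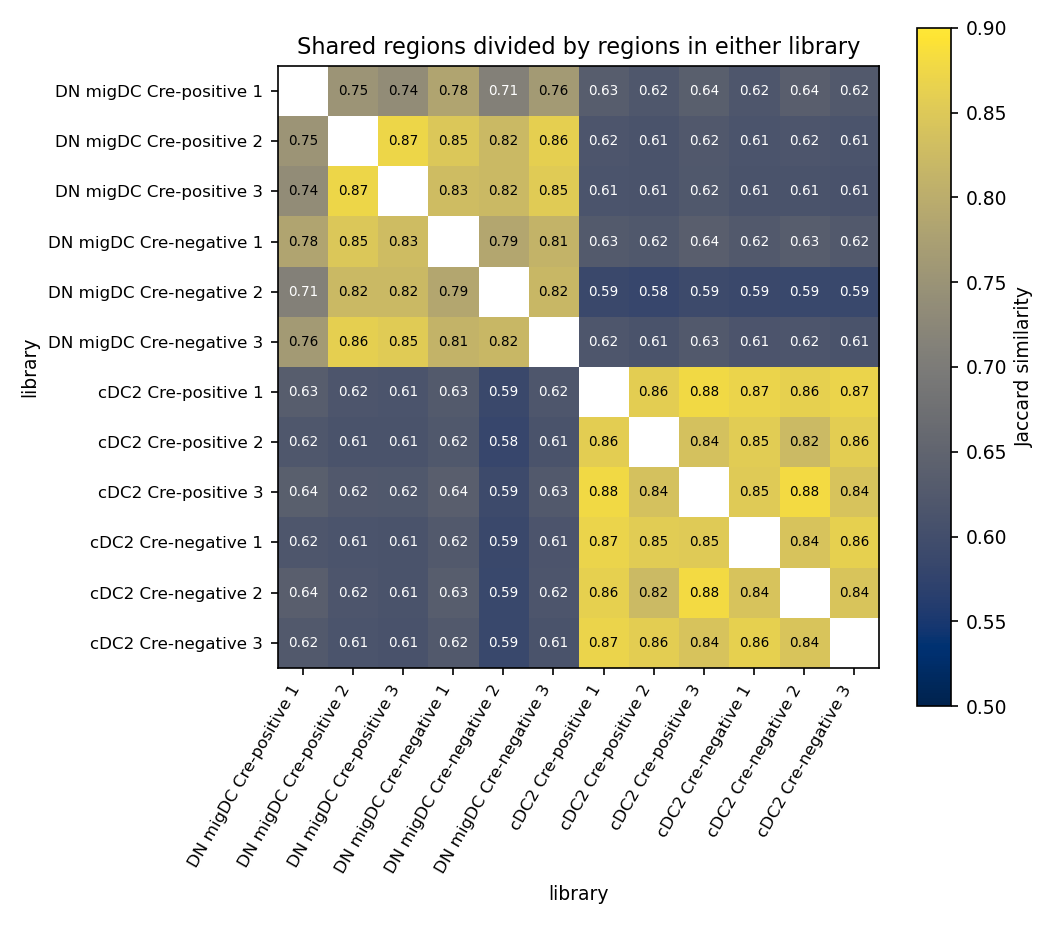
Jaccard similarity of called regions for every pair of the 12 libraries, DN migDC first and cDC2 after them. Pairs within DN migDC lie between 0.711 and 0.872 and pairs within cDC2 between 0.825 and 0.881, against 0.583 to 0.638 for pairs across subsets, and the row of DN migDC Cre-positive 1 has the lowest values within DN migDC.

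Most regions that passed, like most tested regions, lay away from gene starts. Gene starts held 3.6% of the regions more often called in DN migDC and 3.5% of those less often called, against 5.9% of all tested regions and 36.1% of the regions called in all 12 libraries. Gene bodies held 53.3% and 48.5% of the regions on the DN migDC and cDC2 sides, near the 49.3% of all tested regions. Regions on the DN migDC side were largely shared with the other migratory subsets. Of these regions 80.0% were called in all 6 libraries of migDC2, the CD11b-type migratory cells, against 32% of all tested regions. In all 4 libraries of migDC1, the migratory cells of the type 1 lineage, 82.9% were called, against 33.1% of all tested, and in all 6 of resident cDC1 7.8%, against 19.4%. Regions on the cDC2 side were missing from all migDC2 libraries in 71.9% of cases, against 36.5% of all tested, and from all migDC1 libraries in 90.2%, against 50.9%. In all 6 cDC1 libraries 28.8% of them were called, against 19.4% of all tested. These shares were not tested against DN migDC. Titles of all migDC1 and most of these migDC2 libraries carry a letter, and those of all cDC1 libraries are plain. Title form and migratory or resident origin thus cannot be told apart fully in these shares.

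Ccr7, the chemokine receptor that guides dendritic cells to the lymph node and the marker named for this comparison, had one of the 3 strongest peaks in every DN migDC list. It lies in a region of 25403 bp that spans the gene (chr11:99130267-99155669, mm10) and was called in all 12 libraries. Its rank by signal was between 1 and 3 in DN migDC (median 2) and between 5647 and 9725 in cDC2 (median 8503). All DN migDC libraries thus rank it above all cDC2 libraries, with no overlap. In all 5 regions assigned to Ccr7 that were called in the 12 libraries, every DN migDC rank stood above every cDC2 rank, an order seen in 12% of the 22706 regions called in all 12, with the opposite order in 17.8%. Another of the 5, 12286 bp from the gene, ranked between 1067 and 3706 in DN migDC and between 6215 and 7341 in cDC2. None of the 3 testable Ccr7 regions passed, and 1 did without DN migDC Cre-positive 1 or without cDC2 Cre-positive 1. The 5 regions above had kept peaks in both subsets and were not testable by calls. The signal is the area of a peak, so wide peaks rank high.

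Fscn1, which encodes the actin-bundling protein fascin of mature dendritic cells, showed the same pattern. The region at its start (chr5:142958478-142967066) ranked between 12 and 30 in DN migDC (median 17.5) and between 8107 and 26612 in cDC2 (median 18827). Every DN migDC library again stood above every cDC2 library. A region 9442 bp away (chr5:142949170-142950913) was called in 6 of 6 DN migDC and 0 of 6 cDC2 libraries (exact test, adjusted p = 0.0176), and both testable regions of the gene passed in that direction. Cd40, the receptor through which T cells license dendritic cells, had its strongest region at an end of the gene (chr2:165054315-165057449), with ranks between 202 and 611 in DN migDC (median 234) and between 2919 and 3780 in cDC2 (median 3476.5). A distal Cd40 region was called in 6 of 6 DN migDC and 0 of 6 cDC2 libraries (exact test, adjusted p = 0.0176).

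The DC maturation list, 35 genes of the mature state, lay mostly on the DN migDC side. Of its 137 testable regions 72 (52.6%) were more often called in DN migDC and 9 (6.6%) less often, against 26.1% and 22.1% of all tested regions. The median difference in the share of libraries with a call was 83.3 percentage points, against −16.7 over all tested regions. Libraries called between 201 and 243 of the list's 480 regions in DN migDC and between 144 and 164 in cDC2, without overlap. The full lists gave 72 and 2 of 233. Samsn1, an adaptor protein of immune cells, had 10 of 11 testable regions on the DN migDC side, and libraries called between 12 and 19 of its regions in DN migDC and 7 in every cDC2 library. Of Samsn1, 9 regions passed on that side in the full lists. Ankrd33b had 6 of 8 testable regions on that side (3 without the plain-title DN migDC libraries), Slco5a1 5 of 7, Tnfsf4 (OX40 ligand, a costimulator of T cells) 4 of 6 and the adenylate cyclase gene Adcy6 4 of 4. Adcy6 had 4 called regions in every DN migDC library and at most 1 in any cDC2 library.

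Cd86, a costimulatory ligand of T cell CD28, went the other way by calls. None of its 9 testable regions was more often called in DN migDC and 5 were less often called. Its strongest region (chr16:36639678-36643573) ranked between 85 and 4924 in DN migDC and between 1828 and 6271 in cDC2, which overlap. A region in the gene body (chr16:36636395-36638038) was called in 0 of 6 DN migDC and 6 of 6 cDC2 libraries (exact test, adjusted p = 0.0176), and in the full lists 4 DN migDC libraries held a weaker peak there. Testing the full lists left 2 Cd86 regions less often called, and leaving out the plain-title DN migDC libraries left 3. Cd80, the partner ligand, had 2 testable regions and neither passed.

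Genes of migration and the cytoskeleton were spread over both directions, with 32 of 92 testable regions (34.8%) more often called in DN migDC and 18 (19.6%) less often, and a median difference of 33.3 percentage points. With full lists these counts were 32 and 2 of 164. Arhgap31, a GTPase-activating protein for Cdc42 and Rac, had 7 of 9 testable regions on the DN migDC side, and its region in the gene body (chr16:38674966-38677428) ranked between 618 and 3408 in DN migDC with no kept peak in cDC2. Weaker peaks of 4 cDC2 libraries lay there in the full lists, which gave 6 Arhgap31 regions on the DN migDC side. Dock2, the exchange factor for Rac in leukocytes, had 4 of 5 (2 in the full lists) and the integrin gene Itgb1 3 of 3. Myo1e, an unconventional myosin, had 9 testable regions, 2 on the DN migDC side and 4 on the cDC2 side. The 4 were lost without the plain-title DN migDC libraries and in the full lists.

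Chemokine receptors other than Ccr7 had more regions on the cDC2 side, and chemokines on the DN migDC side. Of 33 testable receptor regions 5 (15.2%) were more and 12 (36.4%) less often called in DN migDC, with a median difference of −50 percentage points, and 7 more and 3 less of 41 in the full lists. Ccr3 had 2 of 4 testable regions less often called and Cxcr5, the receptor for CXCL13, 2 of 3. Ccr4, a receptor for CCL17 and CCL22, had both testable regions more often called, with 2 or 3 called regions in every DN migDC library and none in any cDC2 library. Of 21 chemokine regions 8 (38.1%) were more and 4 (19.0%) less often called in DN migDC, with a median difference of 66.7 percentage points. Libraries called 33 to 41 chemokine regions in DN migDC and 33 to 38 in cDC2, which overlap, and the full lists gave 6 more and 1 less of 26. Ccl17, a chemokine of mature dendritic cells that draws CCR4-bearing T cells, had a region 1713 bp from the gene (chr8:94806074-94808740) with ranks between 2202 and 4232 in DN migDC (median 3776.5) and no kept peak in cDC2 (exact test, adjusted p = 0.0176). In the full lists 1 cDC2 library had a weak peak there, at rank 46815. The start of its neighbour Ccl22 (chr8:94744759-94746516) ranked between 5124 and 7551 in DN migDC and between 14743 and 17895 in cDC2, without overlap.

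Irf4, a transcription factor that cDC2 and migratory cells require and the other marker named for this comparison, had regions on both sides. The region at its start (chr13:30748500-30751517) was called in all 12 libraries, with ranks between 4011 and 14137 in DN migDC and between 8144 and 10656 in cDC2, which overlap. Of its 9 testable regions 5 were more often called in DN migDC, among them 3 regions between 23595 and 35122 bp from the gene, all at lower coordinates than its start. A region at chr13:30715602-30716512 was called in 6 of 6 DN migDC and 0 of 6 cDC2 libraries, also in the full lists. The 2 Irf4 regions less often called in DN migDC (0 of 6 libraries against 5 of 6 in cDC2, exact test, adjusted p = 0.0415) had weaker peaks in 5 and 6 DN migDC libraries of the full lists, where 2 Irf4 regions were more and 1 less often called. Without the plain-title DN migDC libraries these counts were 3 and 0.

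Genes of the cDC2 list were mostly on the cDC2 side. Of 72 testable regions 12 (16.7%) were more and 32 (44.4%) less often called in DN migDC, with a median difference of −66.7 percentage points, and libraries called between 87 and 96 of the list's regions in DN migDC and between 113 and 127 in cDC2. The full lists gave 10 more and 13 less of 97. Il1r2, the decoy receptor that binds IL-1 without signalling, had 11 of 12 testable regions less often called in DN migDC. DN migDC libraries called 7 or 8 of its 21 regions and cDC2 libraries between 15 and 20. A region in its body (chr1:40099093-40100967) ranked between 6862 and 25805 in cDC2 and had no peak in any full DN migDC list (exact test, full-list adjusted p = 0.023), and 7 Il1r2 regions passed in the full lists. Without the plain-title DN migDC libraries 5 did. Its start was called in all 12 libraries, at ranks between 3964 and 16851 in DN migDC and between 2089 and 2813 in cDC2.

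Itgam, which encodes CD11b, had 3 of 6 testable regions less often called in DN migDC. The region over its start (chr7:128062257-128062999) was called in 1 of 6 DN migDC and 6 of 6 cDC2 libraries (exact test, adjusted p = 0.0415), and the adjoining region (chr7:128063120-128063807) in 0 and 6 (exact test, adjusted p = 0.0176). In the full lists all 6 DN migDC libraries had a peak over the start and 1 had a weak peak in the adjoining region. Both regions have the same best cDC2 rank, 9361, and may share 1 broad peak. In cDC2, Cre-positive libraries called 10, 12 and 11 of the 20 Itgam regions and Cre-negative libraries 8 each. In DN migDC, Cre-positive libraries called 5, 6 and 4 and Cre-negative libraries 5, 5 and 4. Itgax, described below, also had more calls in Cre-positive than in Cre-negative cDC2, and the cause at Itgam was not tested. Notch2, the receptor that supports splenic and intestinal cDC2, had 3 of 5 testable regions less often called, each in 0 of 6 DN migDC and 6 of 6 cDC2 libraries. Klf4, a transcription factor of a cDC2 subgroup, had no testable region, and its start ranked between 143 and 1840 in DN migDC and between 158 and 215 in cDC2. Mgl2, a lectin of skin-derived CD11b+ cells, had a region 799 bp from its start called in 6 of 6 DN migDC and 0 of 6 cDC2 libraries (exact test, adjusted p = 0.0176). Its 1 region called in all 12 libraries went the other way, with ranks between 27962 and 34613 in DN migDC and between 8020 and 18778 in cDC2, without overlap. Zeb2 and Sirpa had 1 region on each side. None of these passed in the full lists, where other regions gave 1 more and 0 less for Zeb2 and 1 more and 1 less for Sirpa.

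Other transcription factors of dendritic cells had 55 of 168 testable regions (32.7%) more and 36 (21.4%) less often called in DN migDC, with a median difference of 0.0 percentage points. Testing the full lists gave 52 more and 6 less of 285. Zfp366 (DC-SCRIPT), a zinc-finger regulator of conventional dendritic cells, had 10 of 12 testable regions on the DN migDC side, with 20 to 24 called regions per DN migDC library and 9 to 12 per cDC2 library (7 regions on that side in the full lists). Zbtb46, a marker of the conventional lineage, had 6 more and 1 less of 8. Etv6, an ETS-family repressor, had 11 more and 5 less of 26, and in the full lists 6 more and 1 less. Irf8, the regulator of the cDC1 lineage, had 1 of 7 testable regions on the DN migDC side, or 2 or 3 when cDC2 Cre-positive 3, Cre-negative 3 or Cre-negative 1 was left out. Its start ranked between 3619 and 5549 in DN migDC and between 6928 and 7900 in cDC2, without overlap. Cebpb had all 3 of its testable regions on the cDC2 side and Runx1 4 of 7, as did 5 of 7 of Runx3, which was listed with the TGF-β genes. Without the plain-title DN migDC libraries 1 Runx1 region was less often called, and in the full lists 1 Runx1 and 0 Runx3 regions were. The cDC1 list had 13 more and 10 less of 50 testable regions, and 17 more and 3 less of 84 in the full lists.

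**Figure D3:**
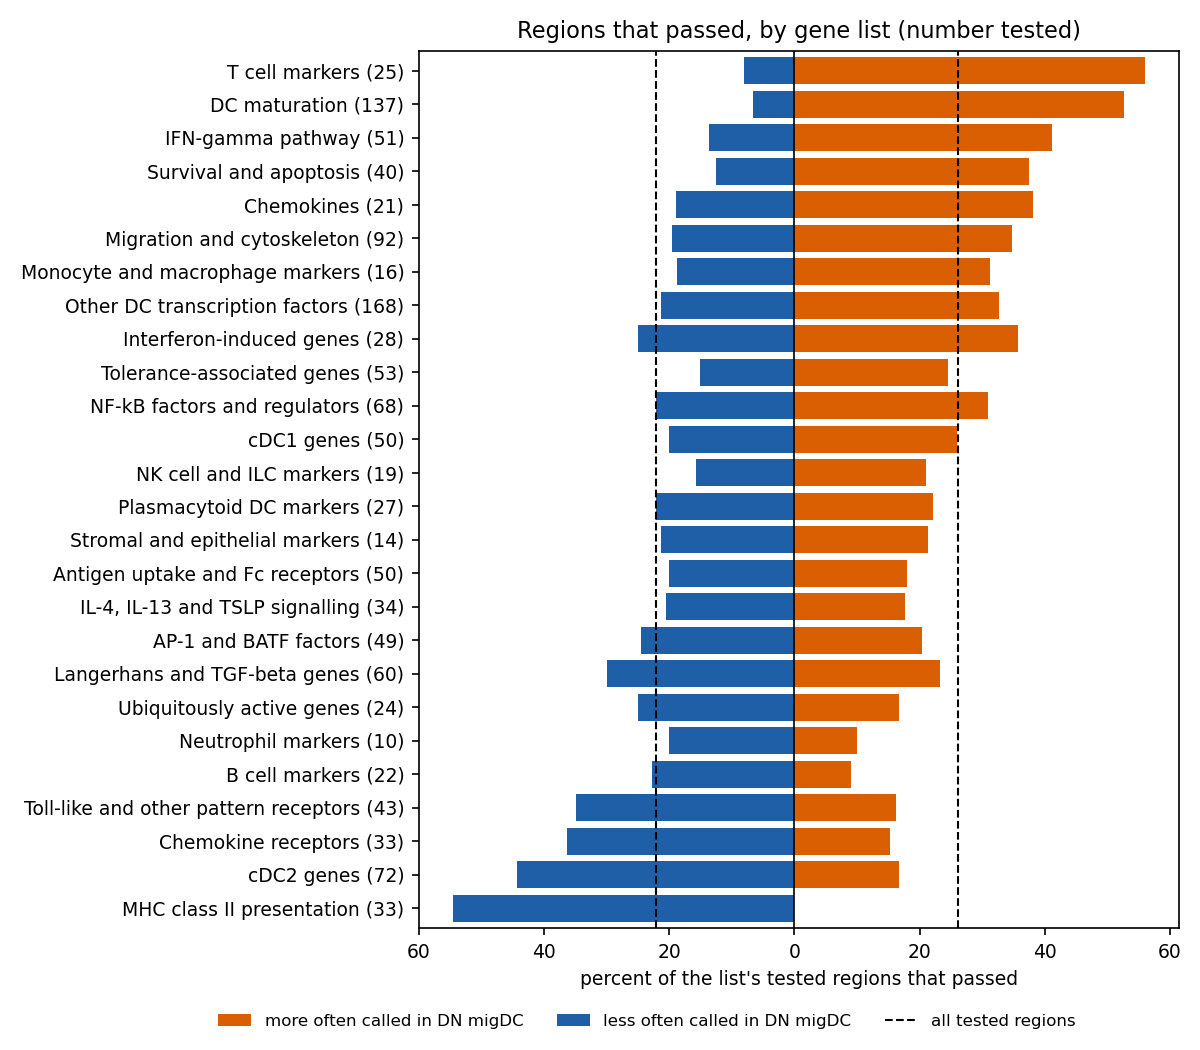
Percent of each gene list's testable regions that were more often called in DN migDC (orange, to the right) or less often called in DN migDC (blue, to the left), with the number testable in parentheses and dashed lines at the 26.1% and 22.1% of all tested regions. T cell markers (25 testable regions) reach 56.0% and the DC maturation list 52.6% on the DN migDC side, and the MHC class II list reaches 54.5% on the cDC2 side with no region on the other.

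The IFN-γ pathway list, the receptor and its signalling chain, had 21 of 51 testable regions (41.2%) more and 7 (13.7%) less often called in DN migDC, with a median difference of 50 percentage points. With full lists the counts were 24 more and 0 less of 75. The receptor itself was on the cDC2 side: Ifngr1 had 4 of 5 testable regions less often called in DN migDC, and libraries called between 3 and 5 of its 15 regions in DN migDC and between 8 and 10 in cDC2. Its region in the gene body (chr10:19596481-19597430) was called in 0 of 6 DN migDC and 6 of 6 cDC2 libraries (exact test, adjusted p = 0.0176), in both genotypes. The full lists held a peak of 1 DN migDC library there (exact test, adjusted p = 0.057) and no Ifngr1 region passed. Without the plain-title DN migDC libraries 2 Ifngr1 regions did. The Ifngr1 start was called in all 12 libraries, with ranks between 1590 and 2370 in DN migDC and between 947 and 1522 in cDC2, without overlap. Downstream, Irf1, an early IFN-γ target, had 3 more and 1 less of 7. Irf2 had 3 more of 9 and Jak2, a receptor-bound kinase, 2 more of 4. Nlrc5, the transactivator of MHC class I genes, had 3 more of 5. Interferon-induced genes had 10 more (35.7%) and 7 less (25.0%) of 28, with a median difference of 33.3 percentage points. Over all tested regions these shares were 26.1% and 22.1%. The full lists gave 10 more and 0 less of 45. Among interferon-induced genes Cd274, the gene for PD-L1, had both testable regions more often called. Ifitm1 had 3 of 4 less often called, while 0 Ifitm1 regions passed in the full lists.

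Genes of MHC class II presentation had no region on the DN migDC side. Of 33 testable regions 0 were more and 18 (54.5%) less often called in DN migDC, with a median difference of −83.3 percentage points, and libraries called between 63 and 66 of the list's regions in DN migDC and between 84 and 91 in cDC2. H2-DMb1, part of the peptide exchange complex, had 3 of 3 on the cDC2 side, H2-Oa, a modulator of that complex, 3 of 5, H2-Eb2 2 of 3 and the invariant chain gene Cd74 1 of 1. The H2-DMb1 start was called in all 12 libraries, at ranks between 7287 and 10616 in DN migDC and between 2846 and 4191 in cDC2, without overlap. No H2-DMb1 region passed in the full lists. Of the 55 regions of the list called in all 12 libraries, 25 (45.5%) had every DN migDC rank below every cDC2 rank, against 17.8% of all such regions. The full lists gave 1 more and 2 less of 37. Ciita, the master regulator of these genes, was counted with the IFN-γ pathway and had 3 of 4 testable regions more often called in DN migDC. Pattern receptors had 7 more (16.3%) and 15 less (34.9%) of 43, with a median difference of −50 percentage points. By contrast the full lists gave 7 more and 1 less of 56. Tlr2, which senses bacterial lipopeptides, had 3 of 5 and the inflammasome sensor gene Nlrp3 2 of 2 on the cDC2 side. Antigen uptake and Fc receptor genes had 9 more and 10 less of 50, and 10 more and 0 less of 60 in the full lists. The uptake receptor gene Ly75 had 4 of 4 on the DN migDC side, and 6 regions in the full lists. The Ly75 start ranked between 2566 and 6774 in DN migDC and between 13154 and 15001 in cDC2, without overlap.

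Around Itgax, the gene for CD11c whose promoter drives the Cre, calls also followed the genotype. In cDC2, Cre-positive libraries called 7, 9 and 8 of its 10 regions and Cre-negative libraries 5 each. In DN migDC, Cre-positive libraries called 2, 3 and 5 and Cre-negative libraries 2 each. Whether reads from the transgene enter these peaks was not tested, and of the 2 Itgax regions less often called in DN migDC 1 passed without the plain-title DN migDC libraries and none in the full lists.

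NF-κB factors and their regulators had 21 of 68 testable regions (30.9%) more and 15 (22.1%) less often called in DN migDC. Over all tested regions these shares were 26.1% and 22.1%. The full lists gave 22 more and 1 less of 120 for the NF-κB list. Birc2, a ubiquitin ligase of this pathway, had 4 of 4 on the DN migDC side (2 in the full lists), and Tnfaip3, the gene for the inhibitor A20, 3 more and 2 less of 5. AP-1 and BATF factors had 10 more (20.4%) and 12 less (24.5%) of 49. The full lists gave 9 more and 2 less of 61. Of their 77 regions called in all 12 libraries 30 (39.0%) had every DN migDC rank below every cDC2 rank and 5 (6.5%) above. Over all regions called in the 12 libraries these shares were 17.8% and 12%. Survival and apoptosis genes had 15 more (37.5%) and 5 less (12.5%) of 40, with a median difference of 58.3 percentage points. The full lists gave 17 more and 1 less of 57. Bcl2l1, the gene for the survival factor BCL-XL, had 3 of 4 testable regions on the DN migDC side and 4 regions in the full lists. Its start ranked between 429 and 514 in DN migDC and between 984 and 1219 in cDC2. Tolerance-associated genes had 13 more (24.5%) and 8 less (15.1%) of 53, and 21 more and 1 less of 75 in the full lists. Il2ra, the IL-2 receptor α chain of mature dendritic cells, had 3 of 6 on the DN migDC side, and Pdcd1lg2, the gene for PD-L2, 1 of 7. Without DN migDC Cre-positive 1 the Pdcd1lg2 count was 4, and without DN migDC Cre-negative 1 it was 3. Langerhans cell and TGF-β genes had 14 more (23.3%) and 18 less (30.0%) of 60. By contrast the full lists gave 23 more and 1 less of 92. Smad7, the inhibitory Smad, had 3 of 3 on the cDC2 side and none in the full lists, and Tgfbr2 3 of 5 on the DN migDC side. IL-4, IL-13 and TSLP signalling genes had 6 more (17.6%) and 7 less (20.6%) of 34. The full lists gave 14 more and 1 less of 55.

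Marker lists of other cells had few testable regions. T cell markers had 14 of 25 testable regions (56.0%) more and 2 less often called in DN migDC, and libraries called between 36 and 39 of the list's regions in DN migDC and between 21 and 37 in cDC2, which overlap. The transcription factor gene Tcf7 gave 6 of these 14 and Cd247 4, while Cd3g and Themis were called in no library and Cd3d and Cd4 had equal numbers of called regions in every library. B cell markers had 2 more and 5 less of 22, with 17 to 38 regions called in DN migDC libraries against 19 to 24 in cDC2. NK cell and ILC markers had 4 more and 3 less of 19, with 25 to 30 regions called in DN migDC and 24 to 30 in cDC2. Monocyte and macrophage markers had 5 more and 3 less of 16, with 26 to 29 called in DN migDC and 20 to 25 in cDC2, which do not overlap. Plasmacytoid DC markers had 6 and 6 of 27 (41 to 49 called in DN migDC, 40 to 46 in cDC2), neutrophil markers 1 and 2 of 10 (6 to 10 called in DN migDC, 8 to 11 in cDC2), and stromal and epithelial markers 3 and 3 of 14 (13 to 18 called in DN migDC, 16 to 20 in cDC2). The full lists gave 12 more and 1 less of 44 for T cell markers, 9 and 0 of 47 for B cell, 7 and 0 of 47 for NK cell and ILC, 7 and 0 of 22 for monocyte and macrophage, 12 and 0 of 45 for plasmacytoid DC, 3 and 1 of 13 for neutrophil and 2 and 0 of 29 for stromal and epithelial markers. In the stromal list, Ccl21a, Col1a2, Col3a1, Krt14, Krt5, Lyve1 and Madcam1 were called in no library. Ubiquitously active genes had 4 more (16.7%) and 6 less (25.0%) of 24, with a median difference of −50 percentage points, and 54 to 60 regions called in DN migDC against 60 to 66 in cDC2. In the full lists 2 were more and 1 less often called of 31. The part of other cells in the results was not tested.

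Genes outside the lists included those with the most regions in either direction. Atxn1, a transcriptional co-repressor known from neurons, had 15 of 23 testable regions more often called in DN migDC and none less often, with 20 to 26 called regions per DN migDC library and 2 to 4 per cDC2 library. Rftn1, a lipid raft protein, had 11 on the DN migDC side and 1 on the other, and Ralgapa2, a GTPase-activating protein for Ral, had 10 and 1. The full lists gave 26 regions of Atxn1, 7 of Rftn1 and 13 of Ralgapa2 on the DN migDC side. Sgms1, a sphingomyelin synthase, had 11 regions on the cDC2 side and 1 on the DN migDC side, Cux1 9 and 1, Snx29 9 and 3 and Rptor, a subunit of the mTORC1 kinase complex, 7 and 2. In the full lists 2 regions of Sgms1, 1 of Cux1, 0 of Snx29 and 1 of Rptor passed in this direction. Sfi1 had 10 of 16 testable regions less often called, but its calls moved with the title form: the plain-title DN migDC libraries called 7 and 13 of its 19 regions, the lettered ones 2 each and the cDC2 libraries between 15 and 19. Among plain-title libraries, both of DN migDC called fewer Sfi1 regions than any of cDC2. The part of title form at Sfi1 was not tested, and no Sfi1 region passed in the full lists. Without the plain-title libraries 12 Sfi1 regions were less often called.

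**Figure D4:**
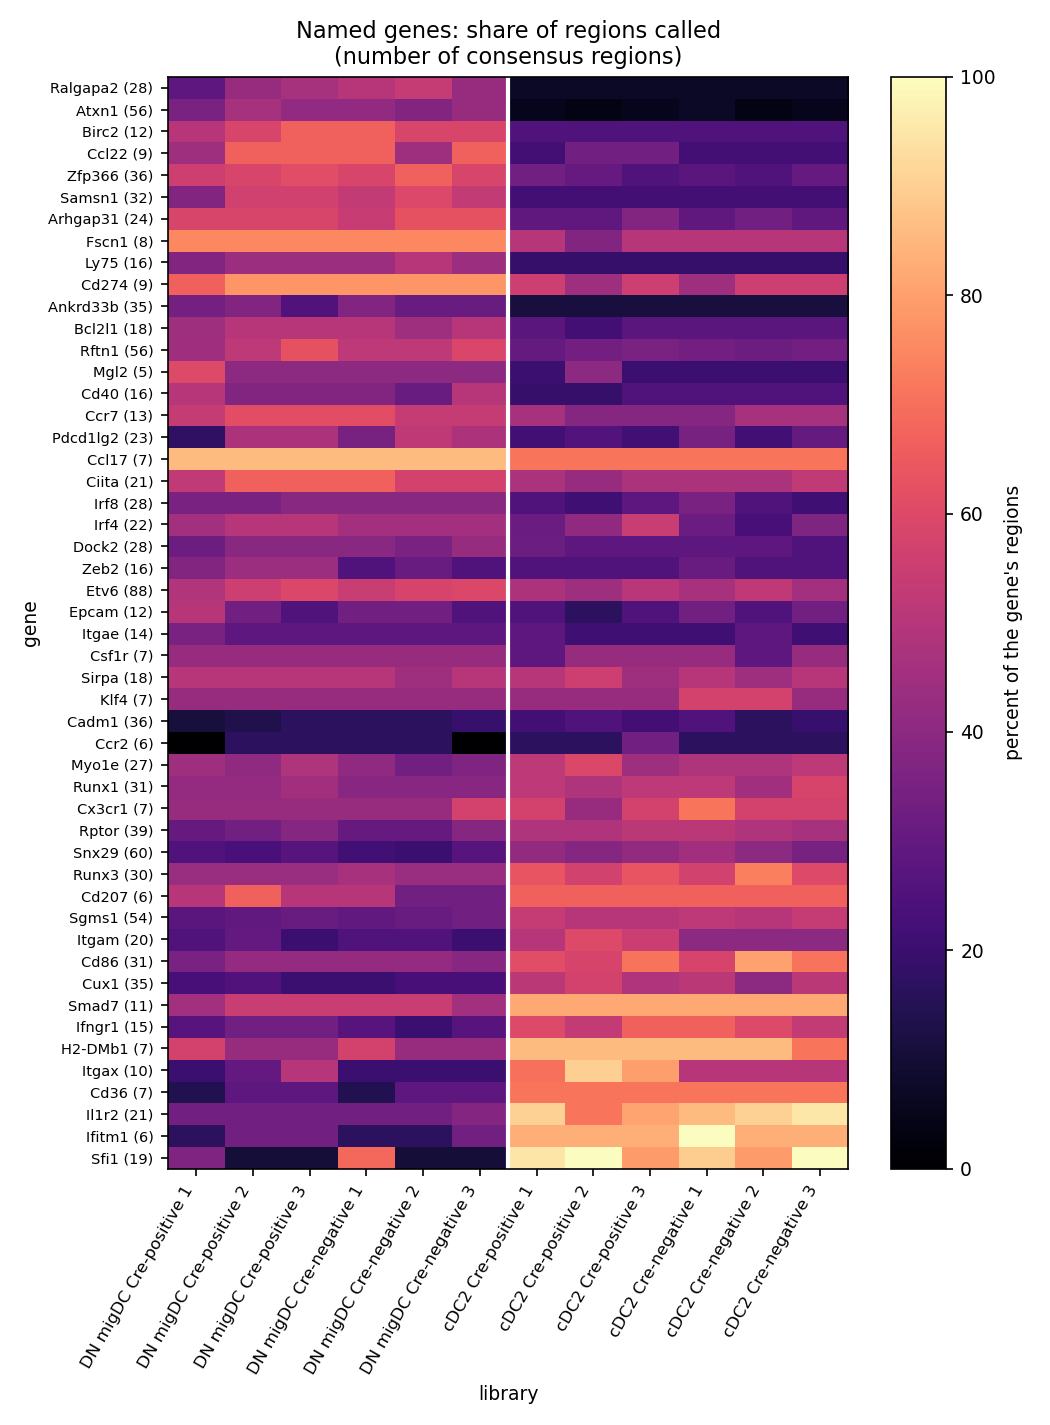
Share of consensus regions of 50 named genes called in each of the 12 libraries, DN migDC columns left of cDC2 columns, genes ordered by the difference between the subset means and the number of regions in parentheses. Atxn1 is called in 20 to 26 of 56 regions in DN migDC and 2 to 4 in cDC2, Il1r2 in 7 or 8 of 21 in DN migDC and 15 to 20 in cDC2, and Sfi1 is uneven among DN migDC libraries.

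Gene starts that passed were few, and their sequences were examined for short motifs. Of 21045 RefSeq promoters of protein-coding genes (build GRCm38.p6, the same coordinates as mm10; 250 bases before to 50 bases after the start), 116 of 109 genes start in a region more often called in DN migDC and 89 of 81 genes in a region less often called. The κB letters (GGGA, TT and CC with any 1 base between each pair), searched on both strands like all motifs here, occurred in 8 of the 116 (6.9%) and in 0 of the 89, against 1.3% of all promoters and 1.5% of those called in all 12 libraries. The 8 promoters belong to Ccr6, Cnr2, Cxcl1, Loxl4, Maneal, Ms4a4a, Stap2 and Uaca. The AP-1 letters TGANTCA occurred in 7.8% of the 116 and in 14.6% of the 89, against 7.0% of all promoters, and the RUNX letters TGTGGTT in 5.2% and 11.2%, against 4.7%. The ISRE-like letters (GAAA repeated after any 2 bases) were in 4.3% and 6.7%, against 3.4%, and the ETS-IRF letters (GGAA, any 2 bases, GAAA) in 2.6% and 2.2%, against 2.6%. The STAT letters TTCNNNGAA were in 5.2% and 11.2%, against 7.8%, and with 4 bases between TTC and GAA in 9.5% and 4.5%, against 6.4%. Some genes have several starts that share letters, the ISRE-like and ETS-IRF letters can match the same bases, and the shares were not tested.

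The promoters below carry these matches, 4 from the DN migDC side with the κB letters in capitals and 2 from the cDC2 side with the ETS-IRF letters (Cd209a) and the adjoining AP-1 and ISRE-like letters (Mndal) in capitals, each read 5′ to 3′ on the strand of its gene. Cxcl1 encodes a neutrophil-attracting chemokine, Stap2 a signalling adaptor, Cnr2 the cannabinoid receptor of immune cells, Ccr6 a chemokine receptor, Cd209a the cDC2 lectin DC-SIGN and Mndal an interferon-inducible nuclear protein. The regions of Cxcl1 (promoter at chr5:90890995-90891294, plus strand), Stap2 (chr17:56005557-56005856, minus strand) and Cnr2 (chr4:135911430-135911729, plus strand) were called in 6 of 6 DN migDC and 0 of 6 cDC2 libraries, and that of Ccr6 (chr17:8242276-8242575, plus strand) in 5 and 0. In the full lists the Cxcl1, Stap2 and Ccr6 regions had peaks in all 6 DN migDC and no cDC2 libraries, and the Cnr2 region also in 1 cDC2 library. The regions of Cd209a (chr8:3748935-3749234, minus strand) and Mndal (chr1:173879909-173880208, minus strand, the first of 2 starts listed in that region) were called in 0 of 6 DN migDC and 6 of 6 cDC2 libraries, and in the full lists 2 and 1 DN migDC libraries had weaker peaks there.
Cxcl1: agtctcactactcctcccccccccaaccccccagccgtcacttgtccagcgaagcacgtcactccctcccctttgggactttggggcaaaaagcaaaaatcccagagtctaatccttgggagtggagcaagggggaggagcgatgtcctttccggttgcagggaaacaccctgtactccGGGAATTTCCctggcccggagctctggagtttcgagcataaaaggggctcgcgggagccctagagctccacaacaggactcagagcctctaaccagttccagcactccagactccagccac
Stap2: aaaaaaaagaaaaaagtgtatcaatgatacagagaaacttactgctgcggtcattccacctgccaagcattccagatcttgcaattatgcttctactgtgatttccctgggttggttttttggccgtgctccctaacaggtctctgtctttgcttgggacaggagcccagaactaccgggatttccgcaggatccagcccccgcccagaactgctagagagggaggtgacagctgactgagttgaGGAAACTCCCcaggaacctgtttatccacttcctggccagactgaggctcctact
Cnr2: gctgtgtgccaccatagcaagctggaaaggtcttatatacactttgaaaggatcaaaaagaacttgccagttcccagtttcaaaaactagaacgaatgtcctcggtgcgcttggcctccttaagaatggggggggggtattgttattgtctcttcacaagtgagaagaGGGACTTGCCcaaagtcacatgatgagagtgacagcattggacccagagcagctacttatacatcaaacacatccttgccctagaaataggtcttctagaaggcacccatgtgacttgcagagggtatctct
Ccr6: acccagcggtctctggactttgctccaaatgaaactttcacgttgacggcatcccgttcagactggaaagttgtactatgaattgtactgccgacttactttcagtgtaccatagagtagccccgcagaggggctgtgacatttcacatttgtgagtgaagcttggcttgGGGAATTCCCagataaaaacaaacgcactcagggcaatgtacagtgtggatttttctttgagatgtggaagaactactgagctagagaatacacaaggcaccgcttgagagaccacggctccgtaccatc
Cd209a: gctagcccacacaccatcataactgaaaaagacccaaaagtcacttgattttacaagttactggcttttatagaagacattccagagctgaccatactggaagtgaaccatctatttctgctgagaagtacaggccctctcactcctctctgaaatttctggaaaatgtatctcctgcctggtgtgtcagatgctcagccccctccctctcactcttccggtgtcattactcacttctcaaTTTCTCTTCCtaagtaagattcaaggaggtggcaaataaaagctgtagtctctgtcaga
Mndal: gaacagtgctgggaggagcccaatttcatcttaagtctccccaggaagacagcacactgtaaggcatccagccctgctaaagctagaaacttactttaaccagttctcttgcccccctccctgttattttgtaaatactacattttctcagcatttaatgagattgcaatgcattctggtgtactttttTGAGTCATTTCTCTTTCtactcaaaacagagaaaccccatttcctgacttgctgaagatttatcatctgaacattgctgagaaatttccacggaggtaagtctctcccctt
In the Cxcl1 promoter the κB match lies just upstream of the start, and the same gene had 1 called region in every DN migDC library and none in any cDC2 library. A match describes letters and is not a bound site, and a promoter without one says only that these letters are absent from this window.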

How the data were processed

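Peak lists of 32 Omni-ATAC-seq libraries were used as deposited. The submitters' processing notes name Bowtie2, deepTools, Genrich and mm10, without versions. Each list gives a peak signal and a −log10 p, both deposited by the authors in the peak caller's columns, 1 list per library. Read counts are not in the lists, so depth and counting error are unknown. Peaks of all 32 libraries were merged into consensus regions, keeping sequence that 3 or more libraries cover over 100 bp or more. Each list was kept to its strongest 38455 peaks by signal. A call needed a kept peak sharing 50% or more of its own length or of the region's. Regions with 3 or more calls and 3 or more missing calls among the 12 libraries were tested. The test was an exact conditional test stratified by genotype, with Benjamini-Hochberg adjustment and a threshold of 0.05, checked on simulated data. The simulated calls were independent between libraries and regions, so the check did not cover list length, depth or dependence between neighbouring regions. Single values were tested by exact permutation within genotype, over 400 relabellings. Regions were assigned to 21631 protein-coding RefSeq genes (GRCm38.p6): to a start or end within 1000 bp, then a gene body, then the nearest gene within 50000 bp. Start sites were listed for 17274 genes. Both ends were used only for genes without a listed start, such as Cd40, here and in the share of kept peaks. All 584 genes of 26 lists matched, 3 by an older symbol.

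Members, lists and tests were chosen with earlier results of these data known. Named genes were 23 fixed genes plus, per direction, up to 12 list genes (at most 2 per list) and up to 6 of any kind, ordered by regions that passed. Other genes in the text were chosen from their lists after their values were seen, and some list genes are not reported here. Alternatives changed the list length, ranking, overlap, consensus, strata, filter and libraries. Python 3.11.15, NumPy 2.4.6, pandas 2.3.3 and Matplotlib 3.10.9 were used.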

Additional observations from a re-analysis of the deposited data

Results flagged for a closer look

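Among 60 groups of libraries examined, where chance marks about 1 group in 20, 4 held a library far from the rest. DN migDC Cre-positive 1 had the highest share of kept peaks near gene starts or ends, 33.3%, with the next DN migDC library at 31.1%. The same library called the fewest regions of the chemokine list, 33, with the next at 39. In cDC2, Cre-negative 3 called the fewest regions of the MHC class II list, 84, with the next at 89, and Cre-positive 1 called the fewest regions of ubiquitously active genes, 60, with the next at 64. A region in the body of Mrc2, a mannose receptor family gene (chr11:105347567-105348169), split in opposite ways by genotype: DN migDC minus cDC2 was 3 libraries in Cre-positive mice and -3 in Cre-negative mice. The difference between the genotypes was not tested, and this was the 1 region of all with such a pattern.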

How the results depend on the processing

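In the alternatives tested on the same consensus regions, 0 passed regions turned direction. Where only libraries, strata or the filter changed, this was fixed in advance by the uneven splits that a region needs to pass. With the full lists 549 regions were less often called in DN migDC and 92.2% of the passed regions were more often called, against 54.1% with equal lists. The strongest 20000 peaks gave 4440 passed regions (2359 more, 2081 less), overlap of the region alone gave 4539 (2509 and 2030), and a filter of 1 called and 1 missing gave 5569 (3131 and 2438). Leaving out 1 library at a time gave 9789 to 11143 passed regions (5200 to 5965 more, 4559 to 5178 less), and each kept all 9455. The uneven splits that a region needs to pass largely fixed this in advance too. The same holds for the named regions with 1 library left out. The share of kept peaks near gene starts or ends, 0.225 points higher in DN migDC, turned to -4.83 in the full lists (exact permutation p = 0.005), -0.778 with the strongest 20000, -0.379 without the plain-title DN migDC libraries and -0.146 with either end of every gene, an alternative chosen after seeing the data, and ranged between -0.252 and 0.450 with 1 library left out. The width difference of -8.33 bp was -114 bp in the full lists (exact permutation p = 0.005) and ranged between -32.3 and 16.8 bp with 1 library left out. Without the lettered DN migDC libraries the difference in peaks per list was 19567 and that in Jaccard similarity 0.222, both with exact permutation p = 0.0625, the smallest of 16 relabellings, and no region could pass. The cause of these shifts was not tested beyond the smaller number of libraries there. Of 61 named regions 38 no longer passed in the full lists, 36 with the strongest 20000, 27 with overlap of the region alone, 12 with the filter, 12 at the length of the shortest list, 6 when ranked by −log10 p, 5 without plain-title DN migDC and 0 with 1 library left out. With 1 library left out, the count of regions more often called moved by over 1.5 times for Ccl22 (1 to 2 or 3), Cadm1 and Sgms1 (1 to 2) among others, and that of regions less often called for Cd207 (1 to 2) and Sirpa (1 to 2). No paired analysis was possible because the replicate numbers were given in accession order and pair no libraries. Peak lists without read counts limit the precision.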

Other observations

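Several genes outside the lists, chosen after their values were seen, also had many regions in 1 direction. Tmcc3, a gene for a transmembrane coiled-coil protein, had 10 of 14 testable regions more often called in DN migDC and none less often, and Pard3b, a relative of the polarity gene Pard3, 8 of 9. Foxp1, a forkhead transcription factor, had 8 more and 4 less of 21. On the cDC2 side, Tgm2, a transglutaminase, had 7 of 10 testable regions less often called in DN migDC, Litaf 6 of 8 and Gab2, a signalling adaptor, 6 of 10.

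Regions called in all 12 libraries were also compared by rank. Every DN migDC rank stood above every cDC2 rank in 33.9% of 62 regions of the IFN-γ pathway list and below in 17.7%. For pattern receptors these shares were 5.6% and 33.3% of 54 regions, and for ubiquitously active genes 4.3% and 13% of 46. Over all 22706 regions called in the 12 libraries the shares were 12% above and 17.8% below. The share below in the IFN-γ pathway list was thus near that of all such regions. All these shares are descriptions without a test.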
